A study of Homo sapiens with 30 samples.

Results

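The WNT ligands, their frizzled (FZD) receptors and 2 families of secreted inhibitors, the secreted frizzled-related proteins (SFRP) and the dickkopf proteins (DKK), were examined in 5 human breast cancer cell lines. Members were all array probes whose gene name starts with WNT, FZD, SFRP or DKK followed by a number, which gave 53 of 41000 probes, for 37 of the 30484 gene names on the array: 19 WNT, 10 FZD, 4 SFRP and 4 DKK genes. HCC1954, MDA-MB-231, MDA-MB-361, T-47D and ZR-75-30 cells had been treated with vehicle or with recombinant human BMP7 over 6 exposure times that ran from 30 min through 1, 3, 6 and 12 h up to 24 h, and 1 two-colour Agilent array was run per line and time point, 30 arrays in all. On each array the vehicle-treated cells carried the Cy3 dye and the BMP7-treated cells the Cy5 dye. Each sample was a pool of cells from 3 cultures, so a line and time point has no replicate, and the dyes were never swapped. Each line is a single established cancer cell line and stands for no tumor type by itself. Per the methods of the study, MDA-MB-231 and T-47D were cultured with serum concentrations other than the recommended ones. In differences that involve these lines, line and serum cannot be told apart.

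WNT proteins are lipid-modified secreted ligands that bind a frizzled receptor together with a co-receptor such as LRP5 or LRP6, which stabilizes β-catenin and turns on TCF/LEF target genes. Some ligands, among them WNT5A, WNT5B and WNT11, are best known for signaling that does not use β-catenin. The SFRP proteins carry a frizzled-like domain and bind the ligands outside the cell, whereas DKK1 blocks the LRP co-receptors and is itself a β-catenin target gene. In the mammary gland, WNT4 acts downstream of progesterone. BMP and WNT signals are known to regulate each other's ligands and inhibitors in development.

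The sequence before the transcription start is shown for the inhibitor with the widest span between the lines, DKK1, and for the canonical ligand that was detected in some of the lines and in others not, WNT3A. Both are the 250 bases upstream of the start, 5′ to 3′ on the plus strand (RefSeq, GRCh38.p14). Capitals mark a TCF/LEF motif (CTTTGAA, or the same 5 first letters followed by AT, TA or TT) or the 6-base GGCGCC motif known from BMP-responsive elements, each searched on both strands.
DKK1 (chr10:52314031-52314280): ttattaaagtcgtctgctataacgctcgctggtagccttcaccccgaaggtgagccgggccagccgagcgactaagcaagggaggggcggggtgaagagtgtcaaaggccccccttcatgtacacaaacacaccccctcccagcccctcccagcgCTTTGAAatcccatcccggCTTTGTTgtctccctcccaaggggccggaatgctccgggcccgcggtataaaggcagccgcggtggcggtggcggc
WNT3A (chr1:228006748-228006997): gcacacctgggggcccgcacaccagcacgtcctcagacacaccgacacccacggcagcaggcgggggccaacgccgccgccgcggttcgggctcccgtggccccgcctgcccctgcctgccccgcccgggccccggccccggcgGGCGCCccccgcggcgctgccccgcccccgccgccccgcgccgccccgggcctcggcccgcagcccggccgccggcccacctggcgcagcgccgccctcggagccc
Of the 37 genes, 25 were in the sequence table, with 28 starts. The 2 TCF/LEF matches before DKK1 made it the 1 start of the 28 with that motif (3.57%), against 12% of 35116 starts of all genes. GGCGCC was found before 9 of the 28 starts (32.1%), against 16.4% of all starts. The 9 were those of FZD1, FZD5, FZD9, SFRP5, WNT2, WNT3A, WNT9A, WNT9B and WNT10A. A match is a run of letters and not a binding site.

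The arrays lay on 13 slides, each with a single cell line except 1 that held MDA-MB-231 and ZR-75-30, and were scanned in 2 batches, the second of which held 6 arrays (30 min and 6 h of both ZR-75-30 and MDA-MB-231, 30 min of HCC1954, and 3 h of T-47D). Both channels were well above background for 51.7% to 68.1% of probes, depending on the array. The 6 h array of ZR-75-30 stood apart: of all single BMP7 ratios, 0.798% were 2-fold or more, and 0.526% without it. In the marker check, the mean vehicle level of the epithelial cadherin CDH1 was 14.59 to 16.81 in 4 lines and 8.17 in MDA-MB-231, that of the mesenchymal filament VIM was 16.89 in MDA-MB-231 and 14.35 in HCC1954 and at most 7.66 in the others, and that of ERBB2 was at most 13.23 in MDA-MB-231 and T-47D and 16.19 to 17.33 in the others (all log2 intensity). Of 4 markers of other cell types, PTPRC was well above background on no array, CD3E on 5 or 6 arrays of every line, COL1A1 on all 6 of HCC1954, MDA-MB-361 and T-47D, 4 of ZR-75-30 and 1 of MDA-MB-231, and PECAM1 on all 6 of HCC1954 and 3 of MDA-MB-231. The part of these signals in the differences below was not tested. In bulk RNA, fewer cells of a kind and less RNA per cell cannot be told apart.

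The first comparison asked how the members differed between the lines without BMP7, using the Cy3 channel. A gene was counted as detected in a line when its probe was well above background on at least 4 of the 6 arrays. By this measure, 14 of the 37 genes were detected in all 5 lines, 11 in 1 to 4 lines and 12 in none. The receptors were the most widely detected family: 7 of 10 FZD genes (FZD1, FZD2, FZD3, FZD4, FZD5, FZD7 and FZD9) were well above background on all 30 arrays. Of the 19 ligands, 6 (WNT3, WNT4, WNT6, WNT7B, WNT10A and WNT10B) were detected in all 5 lines, and 8 (WNT1, WNT2, WNT2B, WNT7A, WNT8A, WNT8B, WNT9B and WNT16) in none. Of the inhibitors, DKK1 was detected in all 5 lines, DKK3 in 4, SFRP1 in 2 and SFRP2 in 1, whereas DKK2, DKK4, SFRP4 and SFRP5 were detected in none. Detection was that of 1 probe per gene, and further probes could differ. The other SFRP2 probes were well above background on no array. The second WNT7B probe was so on all 6 arrays of HCC1954, 1 of T-47D and none of the other lines. The second WNT10A probe was so on 4 arrays of HCC1954, 5 of MDA-MB-231, 1 of ZR-75-30 and none of the others. In MDA-MB-231, the second WNT4 probe was so on no array and the second WNT6 probe on 3. Each of the other 2 DKK3 probes was so on 5 arrays of MDA-MB-231 and at most 1 of any other line. The second FZD1 probe was so on 19 of the 30 arrays. HCC1954 had 10 detected ligands, 9 receptors, 1 SFRP and 2 DKK genes, and T-47D had 9 ligands, 7 receptors, no SFRP and 1 DKK. A member that is not detected may still be expressed below the background of the array.

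**Figure D1:**
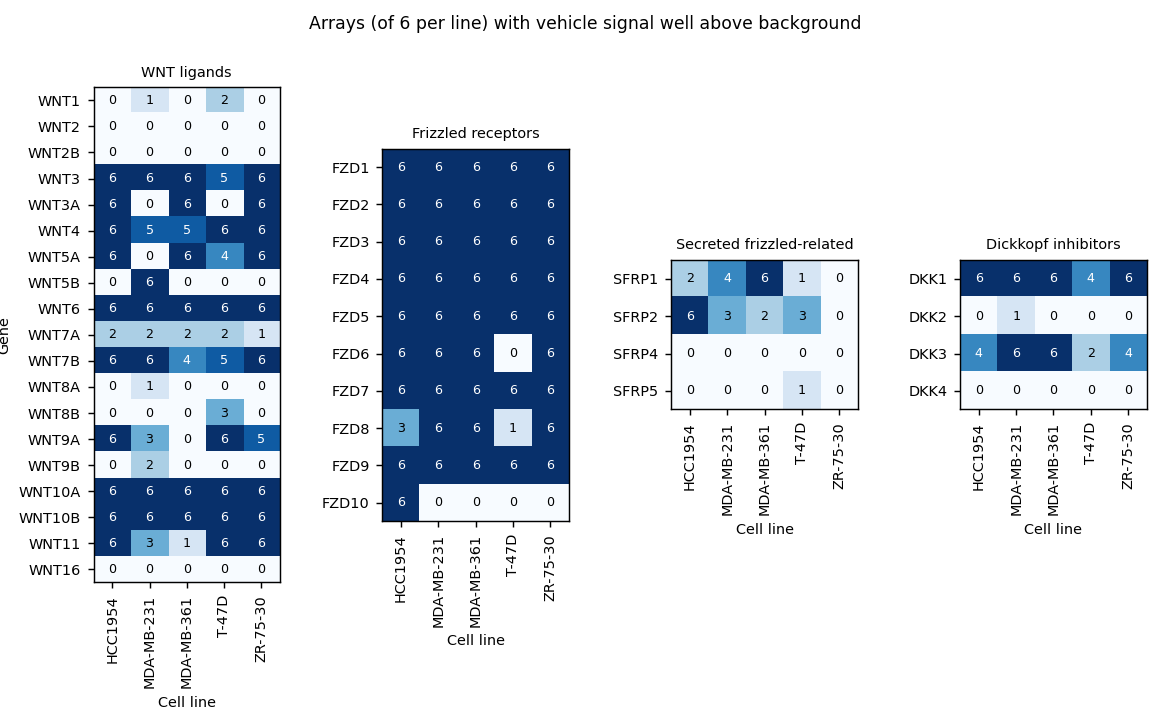
Number of arrays, of 6 per cell line, on which the vehicle (Cy3) signal of each member gene was well above background, with genes in rows by family and cell lines in columns. Most receptors read 6 in every line, whereas FZD10 reads 6 in HCC1954 and 0 in the other lines.

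The vehicle level differed between the lines for 37 of the 53 member probes (limma F-test over 5 lines, Benjamini-Hochberg adjusted p under 0.05, line means at least 2-fold apart and detection in at least 1 line), or 69.8%. Over all 41000 probes, 57.7% met the same criteria, so a difference between these lines was common in general. By gene, the call was made for 10 of 10 FZD, 11 of 19 WNT, 1 of 4 SFRP and 2 of 4 DKK genes. Levels below are log2 intensities over the 6 arrays of a line, and differences are log2 units with their standard error from the limma fit. With a normexp background correction in place of the software's, 25 member probes and 18052 of all probes were called, against 37 and 23675. The differences below were then smaller by over 1.5 times for 9 of the 12 genes described (1.68 for FZD8 to 4.40 for FZD6). The others were DKK1 (8.25), FZD7 (3.24) and FZD4 (3.44). A fold given below as at least a value is thus a bound under the main processing only. For FZD6, the 4.40 lies under its bound of 6.13 log2 units. Between their highest and lowest lines, SFRP1, FZD10, WNT5B, WNT3A and WNT5A also fell under their bounds in at least 1 alternative. Their lowest values were 3.36 against a bound of 5.03, 2.38 against 3.91, 2.57 against 4.29, 2.93 against 5.20 and 1.84 against 3.49, in that order.

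The widest span of all members was that of an inhibitor. DKK1, the LRP antagonist (probe at chr10:53746693-53746752, hg18), ranged from 14.57 to 15.23 with a median of 15.07 in MDA-MB-231, from 13.43 to 14.05 (median 13.68) in HCC1954 and from 13.38 to 13.67 (median 13.62) in ZR-75-30. It ranged from 8.13 to 8.55 (median 8.20) in MDA-MB-361 and from 4.42 to 5.45 (median 4.93) in T-47D, where it was well above background on 4 of 6 arrays. No array of T-47D or MDA-MB-361 thus reached the levels of the other lines. MDA-MB-231 was 1042-fold higher than T-47D (difference 10.02 ± 0.21, adjusted p = 1.91e-25), and the neighbours HCC1954 and ZR-75-30 did not differ beyond their spread (0.11 ± 0.21, adjusted p = 0.760).

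SFRP1, which binds WNT ligands and is often silenced in breast tumors, was high in MDA-MB-361, with a range from 9.33 to 9.83 (median 9.60). It was well above background on 4 of the 5 arrays of MDA-MB-231 with a usable spot (4.59 to 5.24), 2 arrays in HCC1954 (2.53 to 5.36), 1 array in T-47D (2.23 to 4.90) and none in ZR-75-30 (2.25 to 3.03). No other line came near MDA-MB-361. The level was at least 32.6-fold higher in MDA-MB-361 than in ZR-75-30 (adjusted p = 4.67e-13); for a line in which a probe was not well above background on any array, such a bound uses, on each of its arrays, the higher of the probe's own signal and the lowest signal well above background. The other SFRP1 probe was well above background on all 6 arrays of MDA-MB-361 and on 1 array of the other lines, and was called as well.

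DKK3, a divergent member of the dickkopf family, ranged from 7.63 to 8.13 (median 7.90) in MDA-MB-231. Its medians were 5.35 in MDA-MB-361, 4.94 in ZR-75-30, 4.81 in HCC1954 and 4.03 in T-47D, with single arrays up to 6.89 in T-47D, so that the 4 lower lines overlapped each other. The difference from MDA-MB-231 to T-47D was 3.60 ± 0.52 (adjusted p = 1.17e-06), and since T-47D was well above background on 2 of 6 arrays, its level there is not firm. Each of its other 2 probes also had its highest mean in MDA-MB-231, although 1 array of ZR-75-30 reached 6.23 on one of them.

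Among the receptors, FZD6 and FZD10 were each absent from the detectable range in part of the lines. FZD6, a receptor of the planar cell polarity pathway, was well above background on all 24 arrays of 4 lines and on none of T-47D. It ranged from 10.61 to 11.01 (median 10.76) in MDA-MB-361, from 10.03 to 11.42 (median 11.06) in HCC1954, from 9.30 to 10.51 (median 10.18) in ZR-75-30 and from 9.25 to 10.46 (median 9.78) in MDA-MB-231, against 2.13 to 2.70 in T-47D. HCC1954 overlapped each of the other 3 expressing lines, MDA-MB-361 lay above every array of ZR-75-30 and MDA-MB-231, and T-47D lay apart from all, at least 70.1-fold below MDA-MB-361 (adjusted p = 9.66e-20).

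FZD10 (chr12:129216127-129216186, hg18) showed the reverse layout. It ranged from 7.90 to 8.59 (median 8.26) in HCC1954 and was well above background on no array of the other lines, where it lay between 1.98 and 2.60. HCC1954 was at least 14.1-fold higher than MDA-MB-361 and at least 11.9-fold higher than T-47D (adjusted p = 5.58e-24 and 8.38e-25).

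FZD8, a receptor for canonical WNT ligands, was well above background on all arrays of ZR-75-30 (7.18 to 8.31, median 7.88), MDA-MB-361 (7.27 to 7.98, median 7.58) and MDA-MB-231 (6.78 to 7.60, median 7.24), on 3 arrays in HCC1954 (4.16 to 5.06) and on a single one in T-47D (3.09 to 4.90). The 3 higher lines did not differ from each other beyond their spread (largest difference 0.56 ± 0.30, adjusted p = 0.132), and ZR-75-30 lay 3.86 ± 0.33 above T-47D (adjusted p = 1.20e-10), where the level is not firm.

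FZD7 and FZD4 were well above background on every array but at different levels. FZD7, a receptor linked to stem-like mammary cells (chr2:202611175-202611234, hg18), ranged from 10.90 to 11.92 (median 11.70) in MDA-MB-231, above every array of the other lines. Its medians there were 9.71 in ZR-75-30, 9.04 in T-47D, 8.38 in HCC1954 and 8.08 in MDA-MB-361, and HCC1954 and MDA-MB-361 did not differ beyond their spread (0.22 ± 0.26, adjusted p = 0.573). FZD4, a receptor that also binds the non-WNT ligand norrin (chr11:86334448-86334507, hg18), ranged from 12.91 to 13.35 (median 13.19) in MDA-MB-361 and from 11.97 to 13.12 (median 12.57) in T-47D. It was between 9.29 and 10.82 on all arrays of the other 3 lines, and MDA-MB-361 lay 3.55 ± 0.23 above ZR-75-30 (11.7-fold, adjusted p = 4.66e-13). The second FZD4 probe was highest in T-47D and lowest in HCC1954, with a span of 1.60. On that probe, the median of MDA-MB-361 was 5.55, below the 5.94 of MDA-MB-231, and its arrays overlapped those of ZR-75-30 (median 5.09).

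The ligands of the WNT5 pair were found in different lines. WNT5B, a close paralog of WNT5A (chr12:1626062-1626121, hg18), ranged from 8.29 to 9.45 (median 8.84) in MDA-MB-231 and was well above background on no array of the other lines (2.43 to 4.86). MDA-MB-231 was at least 17.9-fold higher than T-47D and at least 24.2-fold higher than HCC1954 (adjusted p = 4.09e-14 and 6.13e-14). WNT5A (chr3:55476693-55476752, hg18) was well above background on no array of MDA-MB-231 (2.38 to 3.63). It ranged from 7.43 to 9.02 (median 7.59) in HCC1954, from 6.80 to 7.41 (median 7.20) in MDA-MB-361, from 5.75 to 7.21 (median 6.73) in ZR-75-30 and from 4.35 to 6.26 (median 4.83) in T-47D. HCC1954 was at least 11.2-fold higher than MDA-MB-231 (adjusted p = 3.76e-12), and HCC1954 and MDA-MB-361 did not differ beyond their spread (0.64 ± 0.39, adjusted p = 0.221).

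WNT3A, the classic activator of β-catenin signaling (chr1:226315516-226315575, hg18), was well above background on all 18 arrays of 3 lines and on none of the other 2. It ranged from 9.13 to 9.99 (median 9.59) in ZR-75-30, from 7.06 to 8.73 (median 7.28) in HCC1954 and from 6.80 to 7.46 (median 7.28) in MDA-MB-361, against 3.36 to 3.98 in MDA-MB-231 (5 arrays) and 3.02 to 4.42 in T-47D. ZR-75-30 was at least 36.7-fold higher than MDA-MB-231 (adjusted p = 1.59e-16) and at least 28.8-fold higher than T-47D (adjusted p = 4.02e-15). HCC1954 and MDA-MB-361 did not differ beyond their spread (0.18 ± 0.32, adjusted p = 0.736).

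WNT7B, a ligand known from lung and other epithelia (chr22:44696851-44696910, hg18), was lowest in MDA-MB-361, with a range from 3.78 to 5.29 (median 4.65). It ranged from 7.71 to 8.85 (median 8.15) in HCC1954, and its medians were 7.38 in MDA-MB-231, 7.36 in ZR-75-30 and 6.86 in T-47D. No array of MDA-MB-361 reached the level of any other line. HCC1954 lay 3.63 ± 0.31 above MDA-MB-361 (12.4-fold, adjusted p = 4.12e-11), whereas MDA-MB-231 and ZR-75-30 did not differ beyond their spread (0.23 ± 0.25, adjusted p = 0.517).

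**Figure D2:**
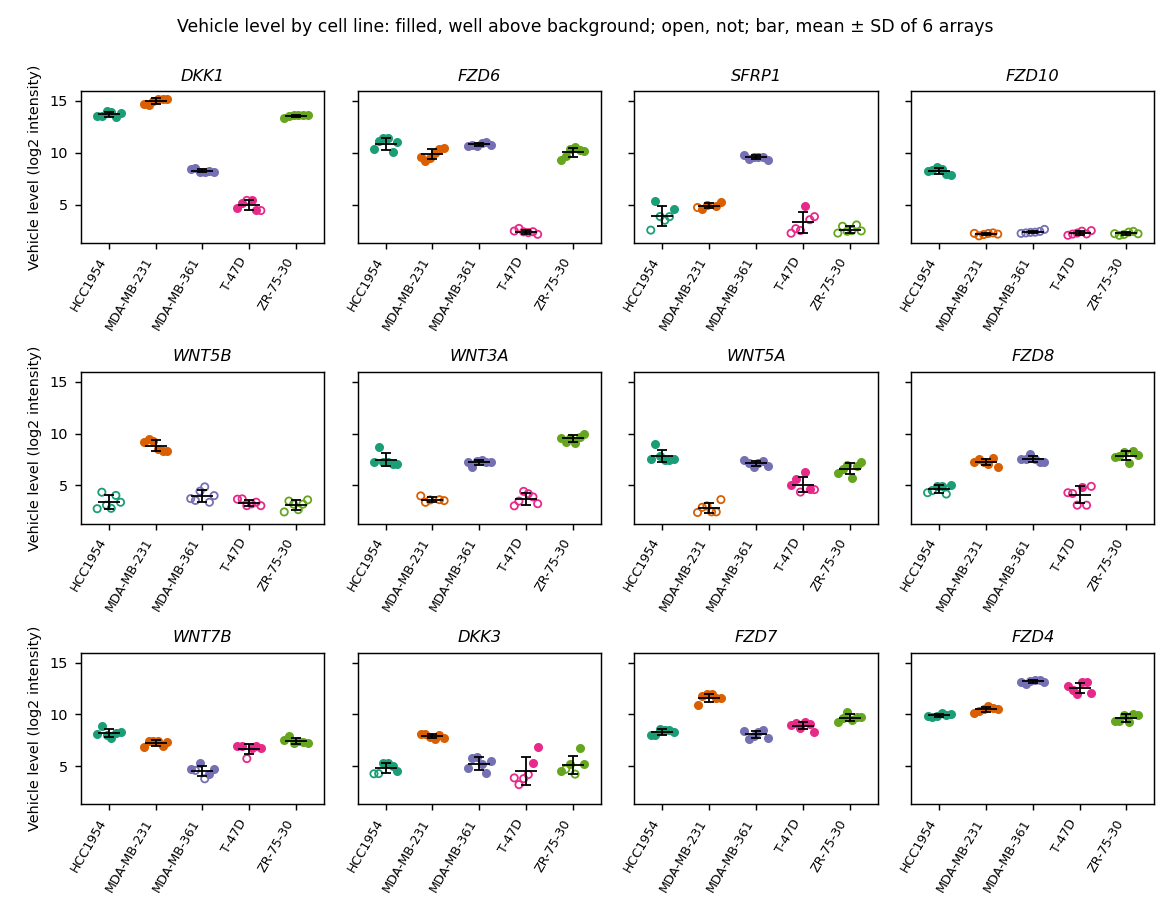
Vehicle level (log2 Cy3 intensity) of the 12 called member genes with the widest span of line means, by cell line. Each point is 1 array (time point), filled where the signal was well above background and open where it was not, and bars give the mean ± SD of the line. DKK1 in T-47D, FZD6 in T-47D, WNT5A in MDA-MB-231 and FZD10 outside HCC1954 lie far below the other lines.

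The other called genes (FZD1, FZD2, FZD3, FZD5, FZD9, WNT3, WNT4, WNT6, WNT9A, WNT10A, WNT10B and WNT11) spanned 1.19 to 3.38 between their highest and lowest line. In 2 of the 13 genes with several probes, a further probe gave a span wider by over 3 log2 units. WNT11 was read from a probe with a span of 2.21 ± 0.40, whereas its other probe (chr11:75575234-75575293, hg18) ranged from 9.73 to 10.14 in ZR-75-30, from 5.30 to 6.14 in HCC1954 and from 3.85 to 5.64 in T-47D and was well above background on no array of MDA-MB-231 or MDA-MB-361. Both WNT11 probes were highest in ZR-75-30. WNT4 was read from a probe that was lowest in MDA-MB-361 (median 5.14), whereas its other probe (chr1:22318802-22318861, hg18) was well above background on no array of MDA-MB-231 and ranged there from 1.99 to 2.30. Both WNT4 probes were highest in T-47D, at 8.04 and 8.64 in the median. The probes of WNT6 did not give the same order of lines: one was highest in T-47D and lowest in ZR-75-30 (2.03 ± 0.45, adjusted p = 0.000566), the other highest in HCC1954 and lowest in MDA-MB-231 (4.81 ± 0.40, adjusted p = 4.37e-11).

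A list of co-receptors, extracellular regulators, intracellular components and target genes gave 53 other genes of the pathway on the array. Of these, 47 were detected in at least 1 line. By the same criteria as above, 39 differed between the lines, whereas 57.7% of all 41000 probes did. Each gene was read from its most often detected probe, so this count and that share are not of the same kind. The widest spans were those of ROR1, a co-receptor of WNT5A that was at least 139-fold higher in MDA-MB-231 than in T-47D, ROR2, a related co-receptor that was at least 43.7-fold higher in T-47D than in MDA-MB-231, and KREMEN2, a DKK1 receptor that was 102.6-fold higher in MDA-MB-361 than in MDA-MB-231. Both ROR1 and WNT5B thus had their highest level in MDA-MB-231, whereas ROR2 was not detected there.

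The second comparison asked whether BMP7 moved the members. Values are log2 ratios of BMP7 over vehicle, used where both channels were well above background, which gave 821 ratios of member probes. As a check of the treatment, the direct BMP target ID1 had a mean ratio of 0.81 over the lines (limma, adjusted p = 0.0245), and 1 of 2 ID2 probes had 0.92 (adjusted p = 0.0113). The other control probes were positive but missed the threshold in this fit. They were the other ID2 probe (0.62, adjusted p = 0.0539), ID3 (0.63, 0.0600), SMAD6 (0.39, 0.220) and SMAD7 (0.22, 0.101). Over single arrays, the median size of a member ratio was 0.18, and that of all probes was 0.16.

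The mean ratio over the cell lines differed from 0 for none of the 29 member probes that could be fitted (limma on 1 value per line, adjusted p under 0.05). Of all 25694 probes fitted, 0.541% were called up and 0.16% down. At an unadjusted p under 0.05 there were 4 member probes (13.8%), against 15.5% of all probes. Their values were 0.19 ± 0.08 for DKK1 (SE, 5 lines, positive in 4, adjusted p = 0.279), -0.17 ± 0.05 for FZD2 (negative in 5 of 5, adjusted p = 0.186), 0.16 ± 0.05 for the second FZD4 probe (positive in 4 of 5, adjusted p = 0.221) and -0.15 ± 0.07 for the third FZD5 probe (negative in 5 of 5, adjusted p = 0.304). The FZD2 value was 0.0036 with normexp background and median scaling. The other FZD4 probe had a mean of 0.05, and the other FZD5 probes -0.01 and -0.03. By line, the mean DKK1 ratio was 0.45 ± 0.25 in T-47D (SD, n = 3 arrays), 0.27 ± 0.29 in MDA-MB-361, 0.21 ± 0.22 in HCC1954, 0.08 ± 0.34 in MDA-MB-231 and -0.09 ± 0.15 in ZR-75-30 (n = 6 each). The median over the members fitted was -0.01, and over all probes -0.0031. Without swapped dyes, this mean also holds any dye bias that a probe has on every array.

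**Figure D3:**
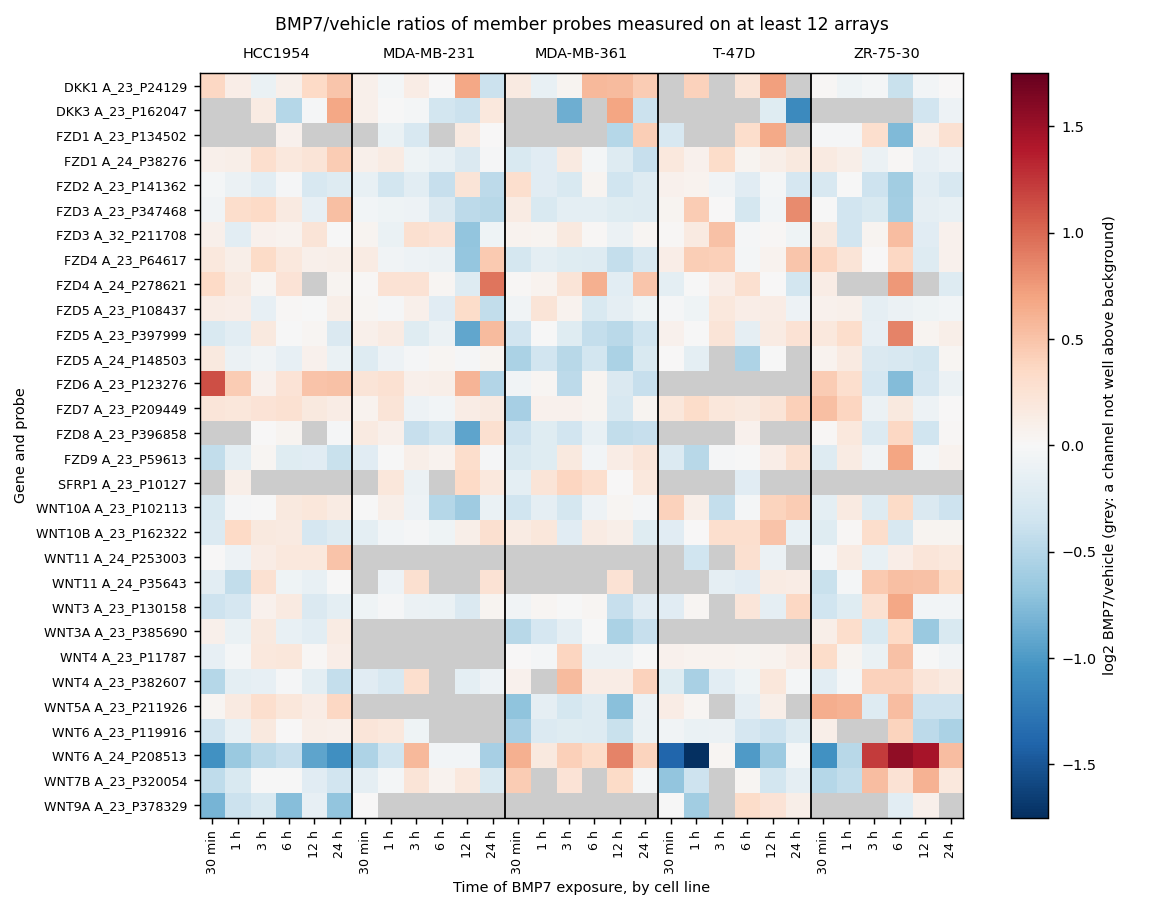
Log2 BMP7/vehicle ratios of the member probes with at least 12 measured arrays (rows), by cell line and time of BMP7 exposure (columns). Colour gives the ratio, and grey marks arrays on which a channel was not well above background. One WNT6 probe (A_24_P208513) carries most of the strong colours.

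A constant dye effect cancels when the later time points are set against the first hour of the same line. The ratio at 3 to 24 h minus that at 30 min and 1 h passed the adjusted threshold for none of 27 member probes and for 1 of all 25403 probes (0.00394%). The BMP targets themselves did not pass it, although their values were large: 0.85 ± 0.14 for ID1 (5 of 5 lines up, adjusted p = 0.131), 0.99 ± 0.14 for an ID2 probe (5 of 5), 0.77 ± 0.12 for ID3 (5 of 5) and 0.58 ± 0.08 for SMAD6 (4 of 4), with the same adjusted p, whereas SMAD7 had 0.03 ± 0.07. At an unadjusted p under 0.05, 5 member probes had a positive value (18.5%, against 11.8% of all probes) and 2 a negative one (7.41%, against 11.6%). A fit on single arrays with the line as a block, in place of line means, treats time points of a line as independent. In it, 6 member probes and 2164 of all probes passed (WNT6, WNT11, WNT4, FZD9, WNT7B and FZD6). Adding the scan batch left 4 member probes (WNT6, WNT11, WNT4 and FZD9) and 1386 of all probes, so that FZD6 and WNT7B no longer passed.

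The positive ones were all ligands except FZD9. A WNT6 probe had 0.75 ± 0.25 (positive in 5 of 5 lines, adjusted p = 0.146), the WNT11 probes 0.45 ± 0.10 and 0.25 ± 0.10 (3 of 3 lines each, adjusted p = 0.131 and 0.204), a WNT4 probe 0.28 ± 0.06 (5 of 5, adjusted p = 0.131) and FZD9 0.27 ± 0.07 (5 of 5, adjusted p = 0.131). The other WNT6 probe had 0.01 ± 0.11 and the other WNT4 probe 0.05 ± 0.08. With normexp background and median scaling, the values were 0.45 for WNT6, 0.10 for WNT4 and 0.00080 for FZD9. FZD6 had -0.40 ± 0.10, negative in the 4 lines in which it was measured, with -0.73 in ZR-75-30, -0.46 in HCC1954, -0.25 in MDA-MB-361 and -0.18 in MDA-MB-231 (adjusted p = 0.131). FZD2 had -0.15 ± 0.06 (negative in 4 of 5, adjusted p = 0.191).

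**Figure D4:**
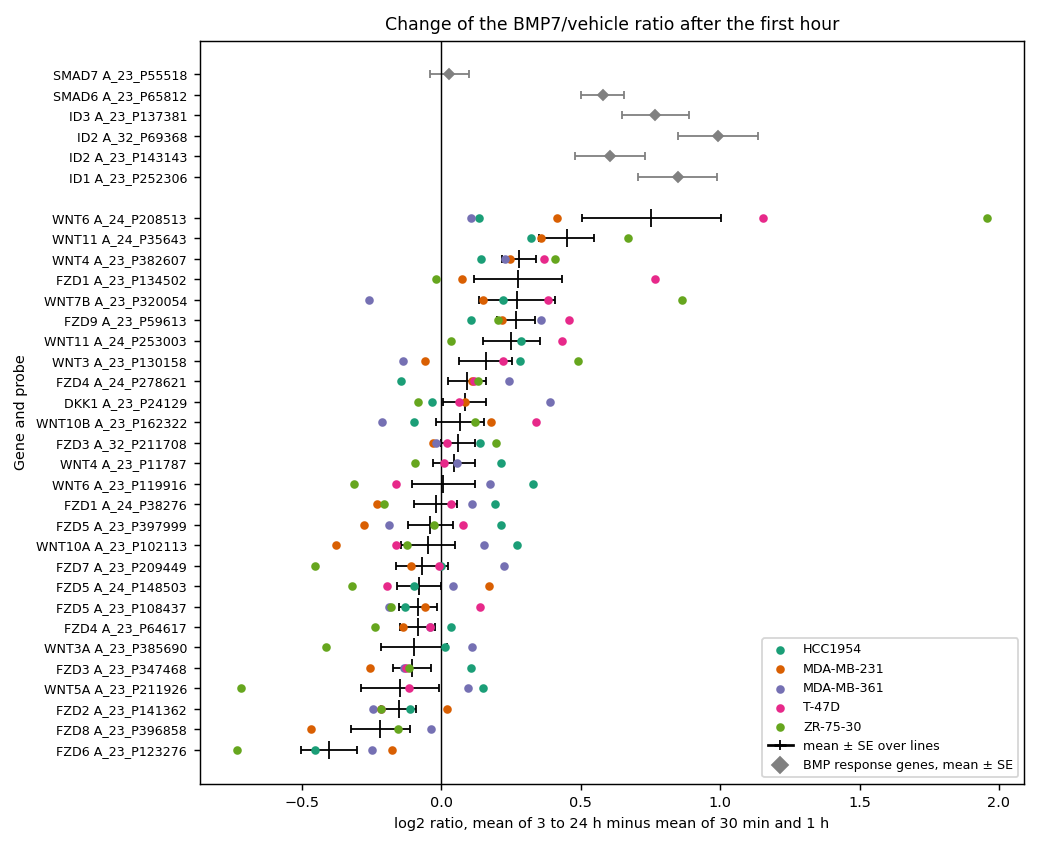
Change of the log2 BMP7/vehicle ratio after the first hour (mean of 3 to 24 h minus mean of 30 min and 1 h) for the 27 member probes fitted and, at the top, for the BMP response genes. Coloured points are single cell lines, black bars the mean ± SE over lines, grey diamonds the mean ± SE of the BMP response genes. Member means lie between -0.40 and 0.75, and the ID genes and SMAD6 between 0.58 and 0.99.

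The third comparison asked whether the ratio differed between the lines, with the 6 time points of a line as its spread. It did for 4 of 19 member probes (limma F-test, adjusted p under 0.05), or 21.1%, against 12.8% of all 21819 probes. These were WNT6 (adjusted p = 0.0218), FZD1 (0.0330), WNT4 (0.0439) and FZD4 (0.0474). None of the 4 passed the threshold when the arrays at 12 h or those at 24 h were left out (WNT6 adjusted p = 0.127 and 0.189), and of all probes 13 and 0 did. Without the 6 h array of ZR-75-30, WNT6 and FZD1 were called, and WNT4 (adjusted p = 0.0648) and FZD4 (0.0633) were not. With scan batch as a term 7 member probes and 5071 of all probes were called, and in the first scan batch alone 5 and 4008, WNT6 and FZD1 among them in both. With time point as a term, an alternative chosen after seeing the data, 8 member probes and 7263 of all probes were called, the 4 among them.

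FZD4 ranged from -0.41 to -0.17 in MDA-MB-361, negative on all 6 arrays, and from -0.03 to 0.48 in T-47D, and the groups did not overlap. The difference was 0.52 ± 0.14. The second FZD4 probe had means of 0.21 in MDA-MB-361 (-0.18 to 0.62) and -0.02 in T-47D (-0.32 to 0.28), and its ratio was not called between lines (adjusted p = 0.783). FZD1 ranged from 0.09 to 0.44 in HCC1954, positive on all 6 arrays, and from -0.40 to 0.16 in MDA-MB-361, a difference of 0.39 ± 0.10, and the highest array of MDA-MB-361 lay within the range of HCC1954. The read WNT4 probe ranged from 0.07 to 0.55 on the 5 arrays of MDA-MB-361 on which it was measured and from -0.50 to -0.02 in HCC1954, without overlap, a difference of 0.50 ± 0.14. The other WNT4 probe was measured in 4 lines and was not part of this fit, and had means of 0.03 in MDA-MB-361 (-0.11 to 0.38) and 0.06 in HCC1954 (-0.14 to 0.19).

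Ratios of 2-fold or more were found on 10 of the 821 member values (1.22%), against 0.798% over all probes. Of these, 8 belonged to 1 WNT6 probe, and the others were FZD6 in HCC1954 at 30 min (1.13) and DKK3 in T-47D at 24 h (-1.11). With all spots used, 37 member values (2.33%) were 2-fold or more, against 1.87% of all values, and with normexp background and median scaling the members' share was the lower one (3.17% against 3.91%).

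WNT6, a ligand of epithelia that is involved in tubule formation in development, was read from a bright probe (chr2:219446524-219446583, hg18). Its ratio was below 0 on all 6 arrays of HCC1954, from -1.08 to -0.40 (median -0.79), and above 0 on all 6 of MDA-MB-361, from 0.17 to 0.87 (median 0.41). It ranged from -0.58 to 0.56 (median -0.20) in MDA-MB-231 and from -1.74 at 1 h to 0.03 at 3 h (median -0.81) in T-47D. In ZR-75-30 it started at -1.05 (30 min) and -0.48 (1 h), lay at 1.23, 1.55 and 1.44 on the arrays of 3, 6 and 12 h, and was 0.54 after 24 h. The widest difference of means was between ZR-75-30 and T-47D (1.33 ± 0.36, adjusted p = 0.0179), and these lines overlapped. The arrays of ZR-75-30 at 30 min and 6 h were of the second scan batch.

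The other WNT6 probe (chr2:219447096-219447155, hg18) lies on the same strand. The vehicle level of the first probe was 12.69 to 16.53 over the 30 arrays. On the 25 arrays on which the second was measured, the ratio stayed between -0.58 and 0.40, and its Pearson correlation with the first probe was -0.24 over these arrays. The probes of this gene thus gave different BMP7 ratios as well as different line orders, and which of them follows the transcript was not tested. The ratios of the bright probe resembled those of many other probes. Of 16083 probes measured on all 30 arrays, 219 correlated with it at a Pearson r over 0.9, none of them another member. The read probes of WNT4 (28 arrays), WNT7B (27) and WNT11 (20) were not measured on all arrays and so were not compared. The mean ratios of WNT4 and WNT7B had the sign of the bright WNT6 probe in every line (WNT7B in MDA-MB-231 at -0.00042). That of WNT11 did not in MDA-MB-231 (0.14). Whether the WNT4 and WNT6 calls are separate results was not tested. Among the other genes of the pathway, SP5, a transcription factor and frequent WNT target, had the closest profile (r = 0.96), followed by NKD2, a WNT feedback inhibitor (r = 0.88). The next values were 0.68 for the target ZNRF3 and 0.63 for AXIN1, and the lowest was -0.70 for RYK. Further targets of the pathway lay at 0.49 (CCND1), 0.06 (NOTUM), -0.21 (RNF43) and -0.64 (MYC). All these values come from the same 30 arrays, and so share any effect of an array.

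**Figure D5:**
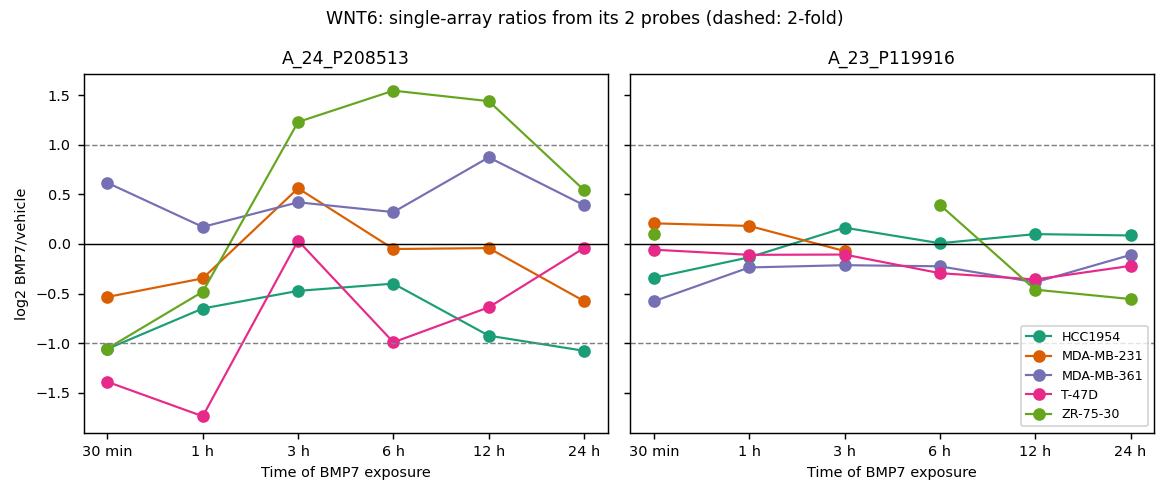
Log2 BMP7/vehicle ratio of the 2 WNT6 probes on single arrays, by time of BMP7 exposure and cell line, with dashed lines at 2-fold. The left probe ranges from -1.74 to 1.55, the right one from -0.58 to 0.40, and missing points had a channel not well above background.

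The other pathway genes went through the same ratio fits, and their calls between lines were near the share of all probes. None of 41 fitted genes passed the threshold for the mean ratio or for the change after the first hour. At an unadjusted p under 0.05 for the latter, 3 had a positive value (11.8% of all probes did) and 6 a negative one (11.6% of all probes). The ratio differed between the lines for 5 of 38 genes, against 12.8% of all probes: the WNT-binding inhibitor WIF1 (adjusted p = 0.0218), the R-spondin receptor LGR4, the transcriptional co-repressor TLE4, NKD2 (adjusted p = 0.0270) and SP5 (adjusted p = 0.0189). The change after the first hour was 0.69 ± 0.18 for SP5 and 0.58 ± 0.15 for NKD2, positive in 5 of 5 lines for both (adjusted p = 0.131). It was -0.42 ± 0.07 for the target gene MYC (negative in 5 of 5, adjusted p = 0.131), -0.36 for RYK, -0.36 for the WNT secretion factor WLS, -0.35 for WIF1, -0.25 for APC, -0.17 for CSNK1A1 and 0.29 for AXIN1. The median change of the 10 target genes fitted was 0.08.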

How the data were processed

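The deposited files were scanner outputs of two-colour Agilent arrays. Per the file headers, Feature Extraction 9.5.1.1 subtracted background and dye-normalized each array by a linear and LOWESS step, which gave the intensity of each channel, the log10 ratio of Cy5 (BMP7) over Cy3 (vehicle) and the p-value of that ratio. The deposited series table held log2 ratios processed by the authors, with a median of 0 on every array and the same direction as the scanner ratios; it served as an alternative. Probe positions are those of hg18 in the files.

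Control and outlier spots were removed, replicate spots averaged per probe, ratios were shifted to a median of 0 on each array, and Cy3 levels were scaled between arrays by Aquantile in limma 3.58.1 (R 4.3.3). Vehicle levels and ratios were compared between lines with slide as a random block (duplicateCorrelation, correlation 0.289 and 0.0967), so that a fitted difference can depart slightly from the difference of means. BMP7 ratios were tested over the 5 lines with 1 value per line (at least 3 lines), and p-values were adjusted over all probes by Benjamini-Hochberg. Each gene was read from its probe well above background on the most arrays, and the 12 called genes of the widest span were described in full. Time points of a line are not replicates of one condition, and the spread between them may hold time effects. The scripts were tested on simulated data. The members and lists were chosen with earlier results of these data known. The number of arrays limits the precision.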

Additional observations from a re-analysis of the deposited data

Results flagged for a closer look

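Over 81 groups of 4 to 6 arrays (vehicle levels or BMP7 ratios of a member probe in a cell line), 6 held an array far from the others by Dixon's test, all of them vehicle levels, and chance gives about 1 in 20. The HCC1954 array at 1 h was high for WNT3A (8.73, the others 7.06 to 7.30) and for WNT5A (9.02, the others 7.43 to 7.83). The MDA-MB-361 array at 1 h was low for WNT3A (6.80, the others 7.25 to 7.46). DKK1 was low in ZR-75-30 at 30 min (13.38, the others 13.57 to 13.67), FZD7 in MDA-MB-231 at 30 min (10.90, the others 11.60 to 11.92) and WNT7B in T-47D at 3 h (5.73, the others 6.73 to 6.99). These last 3 arrays were of the second scan batch, and the part of the batch was not tested.

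The BMP7 ratio differed between lines, by the F-test over lines, for 4 of 19 member probes (21.1%), against 12.8% of all 21819 probes. None of the 4 passed with the arrays at 12 h or those at 24 h left out. The other WNT6 and FZD4 probes were not called, and the other WNT4 and FZD1 probes were not fitted. The difference was 1.33 for WNT6 (ZR-75-30 minus T-47D), 0.52 for FZD4 (T-47D minus MDA-MB-361), 0.50 for WNT4 (MDA-MB-361 minus HCC1954) and 0.39 for FZD1 (HCC1954 minus MDA-MB-361).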

How the results depend on the processing

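The differences in vehicle level of the 12 genes described in full kept their direction and stayed past the threshold under every alternative run, and the number of member probes called lay between 25 and 37. The mean BMP7 ratio was called for 0 member probes under every alternative, and FZD2 turned from -0.17 to 0.0036 with normexp background and median scaling; the cause was not tested. Over all probes, that setting called 1979 for the mean ratio and the fit on arrays with line as a random block 1783, against 4 with all spots. For the change after the first hour, the fit on arrays called 6 member probes, and 4 with scan batch, against 0. For the ratio between lines, the series table gave 2 member probes, scan batch as a term 7, time point as a term 8 (chosen after seeing the data), and leaving out 1 time point 0 to 3, with 2 without the ZR-75-30 array at 6 h. Over all probes that comparison gave 5178 without the slide block, 5071 with scan batch and 7263 with time point, and 0 to 1654 without 1 of the time points 30 min, 1 h, 3 h, 12 h or 24 h. Member ratios past the fold numbered 51 at 1.5-fold (6.21%, all probes 5.35%), 1 at 3-fold (0.122%, 0.134%), 37 with all spots (2.33%, 1.87%), 26 with normexp and median scaling (3.17%, 3.91%) and 17 where a single channel above background sufficed (1.92%, 1.21%), against 10 (1.22%, 0.798%), and 6 to 10 with 1 line left out. Each ratio pairs BMP7 with the vehicle of the same array, and the change after the first hour pairs time points within a line. The labels give no replicate numbers for any further pairing. Time point as a term gave 37 member probes for the vehicle level. A fold is a bound, under the main processing only, where a line had no array well above background.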
